A study of Mus musculus with 4 samples.

Results

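The genes described here carry out glycolysis, the pentose phosphate pathway and glycogen metabolism or respond to low oxygen, and they were compared between mouse embryonic stem (ES) cells that lack SOCS3 and wildtype ES cells. A list of 48 such genes was used. A gene was included where a probe set of the deposited table carried its symbol alone, and of several such probe sets the brightest over the 4 arrays stood for it. This found 44 of the 48 genes, out of 18194 genes named in this way. Gpi1, Eno1, G6pdx and Bnip3l had no such probe set in the tables used and are not analysed here. Gapdh was represented only by control probe sets, and Car9 was too dim to be tested, which left 42 members tested among 12732 genes.

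The data were 4 arrays of total RNA, 2 labelled wildtype and 2 labelled SOCS3 null. SOCS3 restrains signals that cytokine receptors pass on by way of JAK kinases to STAT3. The labels name embryonic stem cells as the source of all 4 arrays and give no strain, clone, passage, medium or time, and their keywords include endoderm, SHP2, leukemia inhibitory factor and ERK1/2. They do not say that the 2 arrays of a genotype came from separate cultures, so the errors given here measure the spread between arrays, which may be technical.

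Glycolysis turns glucose into pyruvate and supplies ATP without oxygen, and mouse ES cells are known to rely on it heavily. Many of its steps can be run by several isoenzymes that are made from different genes and used in different tissues. When oxygen is short, prolyl hydroxylases of the EGLN family stop marking the HIF alpha subunits for destruction, and HIF then raises transcripts for glycolytic enzymes, for VEGFA and for the hydroxylases themselves. HIF binds a short core motif, ACGTG or GCGTG.

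Checks of the labels come first. The intensity of Socs3 was 3024 and 1884 on the wildtype arrays against 19.3 and 12.9 on those of SOCS3 null. All 8 ES cell markers chosen, among them Pou5f1, Nanog and Sox2, lay above the array median in both genotypes, and their summed intensity was 62895 to 65906 in wildtype and 51463 to 53747 in SOCS3 null. Most of this sum is Dppa5a and Pou5f1, which changed by -0.03 and -0.01, while 2 of the 8 were called lower, Sox2 (-1.01) and Fgf4 (-1.29). Zfp42 changed most, by -1.70, but was not called (limma adjusted p = 0.0691). The median change of the 8 was -0.43, and none rose. Of 11 tested markers of primitive and extraembryonic endoderm 10 were higher in SOCS3 null (limma, adjusted p under 0.05). The exception was Ttr, which changed by -0.02, and Afp was too dim to be tested. The summed intensity of the 12 listed was 769 to 800 in wildtype and 33683 to 34155 in SOCS3 null. Most of this sum is Col4a1 and Lama1 in both genotypes. No endoderm marker was at 0, and 7 of the 12 lay below the array median in wildtype and 2 in SOCS3 null. Of 4 neuroectoderm markers tested 2 were lower (Neurod1 and Tubb3), of 4 blood and endothelium markers 3 were higher (Cd68, Cdh5 and Tek), and of 2 mesoderm markers Eomes was higher. Pecam1, also of blood and endothelium, changed by 0.04, and Ptprc was too dim to be tested. Cdh5, at 6.61 and 5.17 in wildtype, passed the filter on dim probe sets only through its SOCS3 null arrays. The same holds for the endoderm markers Sox17 (4.51 and 4.08), Foxa2 (6.11 and 7.33) and Gata4 (7.99 and 12.5). Summed intensities in wildtype and SOCS3 null were 728 to 730 and 214 to 235 for neuroectoderm, 341 to 351 and 487 to 577 for blood and endothelium, and 61.1 to 73.9 and 126 to 162 for mesoderm. Among all genes tested, 13.1% were called higher and 9.55% lower, the shares to set beside these counts of markers. The part of these marker shifts in the values below was not tested. In bulk RNA, fewer cells of a type and less RNA per cell cannot be told apart.

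Sequences upstream of 6 members are shown first because the results turn on these genes: the isoenzyme pair Ldha and Ldhb, the gene that rose most (Fbp2), and 3 genes induced by hypoxia that moved in different directions (Egln3, Bnip3 and Vegfa). Each run is the 250 bases before the start of transcription that lies furthest upstream in RefSeq, build GRCm38.p6, written 5′ to 3′ on the strand of the gene. Capitals mark the core motif ACGTG or GCGTG on either strand, so that CACGT and CACGC are marked too. The palindrome CACGTG, which is also the E-box bound by factors of the MYC family, counts on both strands. The regions are chr7:46845554-46845803 on the plus strand for Ldha, chr6:142507958-142508207 on the minus strand for Ldhb and chr13:62858401-62858650 on the minus strand for Fbp2. They are chr12:54203875-54204124 for Egln3, chr7:138909507-138909756 for Bnip3 and chr17:46032378-46032627 for Vegfa, all on the minus strand.
Ldha: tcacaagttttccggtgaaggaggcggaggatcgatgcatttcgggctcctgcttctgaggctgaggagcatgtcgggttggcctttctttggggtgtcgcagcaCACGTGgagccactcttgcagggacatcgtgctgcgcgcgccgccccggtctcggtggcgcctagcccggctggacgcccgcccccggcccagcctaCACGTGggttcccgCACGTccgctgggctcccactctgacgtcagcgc
Ldhb: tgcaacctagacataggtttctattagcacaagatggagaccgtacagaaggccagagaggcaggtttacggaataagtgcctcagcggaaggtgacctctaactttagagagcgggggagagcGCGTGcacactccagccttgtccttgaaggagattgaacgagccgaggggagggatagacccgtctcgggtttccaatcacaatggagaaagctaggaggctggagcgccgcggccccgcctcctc
Fbp2: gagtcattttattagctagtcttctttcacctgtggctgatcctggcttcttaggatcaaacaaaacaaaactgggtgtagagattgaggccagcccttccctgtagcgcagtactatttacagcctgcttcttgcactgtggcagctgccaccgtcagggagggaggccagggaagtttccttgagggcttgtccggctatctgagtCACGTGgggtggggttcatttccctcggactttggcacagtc
Egln3: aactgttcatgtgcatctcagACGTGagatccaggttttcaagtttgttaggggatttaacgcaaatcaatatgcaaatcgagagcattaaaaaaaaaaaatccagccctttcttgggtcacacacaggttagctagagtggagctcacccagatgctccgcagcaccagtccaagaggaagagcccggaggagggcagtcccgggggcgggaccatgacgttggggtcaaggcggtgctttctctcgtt
Bnip3: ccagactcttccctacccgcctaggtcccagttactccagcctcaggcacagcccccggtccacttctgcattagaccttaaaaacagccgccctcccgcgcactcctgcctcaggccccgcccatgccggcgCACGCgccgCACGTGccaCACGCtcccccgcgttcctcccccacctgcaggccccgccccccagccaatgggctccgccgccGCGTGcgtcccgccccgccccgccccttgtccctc
Vegfa: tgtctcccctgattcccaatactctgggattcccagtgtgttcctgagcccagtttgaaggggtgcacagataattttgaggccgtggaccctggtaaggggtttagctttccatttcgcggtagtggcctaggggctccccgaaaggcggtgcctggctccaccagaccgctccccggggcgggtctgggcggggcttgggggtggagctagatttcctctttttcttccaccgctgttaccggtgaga

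Matches of the motif numbered 5 for Ldha, 5 for Bnip3, 2 for Fbp2, 1 for Ldhb, 1 for Egln3 and 0 for Vegfa. The last says only that these letters are not in this window of Vegfa, which has 2 starts in the table. A promoter was listed for 45 members, of which 35 held a match, or 77.8%, against 56.2% of the 10282 genes tested on the arrays that had one. ACGTG alone, on either strand, was in 46.7% of the members and 21.6% of the genes tested. The median GC content was equal in both sets. Outside the hypoxia groups 28 of 37 members held a match, or 75.7%, and 37.8% held ACGTG. A match was present for 4 of the 6 members that were higher in SOCS3 null, for 4 of the 4 that were lower and for 23 of the 30 that were tested and not called. Bnip3l, Epas1 and Ndrg1 had no entry.

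Transcripts of this list did not move as a block. In SOCS3 null cells 6 of the 42 members tested were higher, namely Hk1, Fbp2, Pgm2, Ugp2, Hif1a and Vegfa, and 4 were lower, namely Ldhb, Eno3, Egln3 and Bnip3. A change is given as the mean of log2(intensity + 16) in SOCS3 null less that in wildtype, and a gene was called at a limma adjusted p under 0.05 over all 12732 genes. The 14.3% of members called higher stood beside a background of 13.1% of all genes, and the 9.52% called lower beside 9.55%. Taking both directions, 23.8% of members and 22.7% of all genes were called. The share of called members was thus near the background at these settings. It was 33.3% against 23.4% with quantile normalization, 33.3% against 23.3% with probe sets averaged per gene and 4.65% against 8.96% with dim probe sets kept. A trend in eBayes gave 31% against 23%, and a robust trend 33.3% against 23.1%. With a filter at the 60th percentile it was 41% against 33.1%, and with replicate numbers as blocks 21.4% against 15%. Adjustment over all probe sets gave 16.7% against 19.3%. The median change was -0.05 for the members and 0.00 for all genes tested. Wildtype and SOCS3 null arrays did not overlap for 33 members, or 78.6%, against 65.8% of all genes. Counts by role below rest on few genes each and have the same backgrounds of 13.1% higher and 9.55% lower.

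Of the 32 members that were not called, 21 had a 95% interval of the change that lay within 1 log2 unit of 0 on either side. With any 1 of the 4 arrays left out limma called no gene at all, although 12 to 18 members and 2928 to 4733 of all genes were at an unadjusted p under 0.05. With dim probe sets kept in the test it called 2 members higher, Hk1 and Pgm2, and 0 lower.

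**Figure D1:**
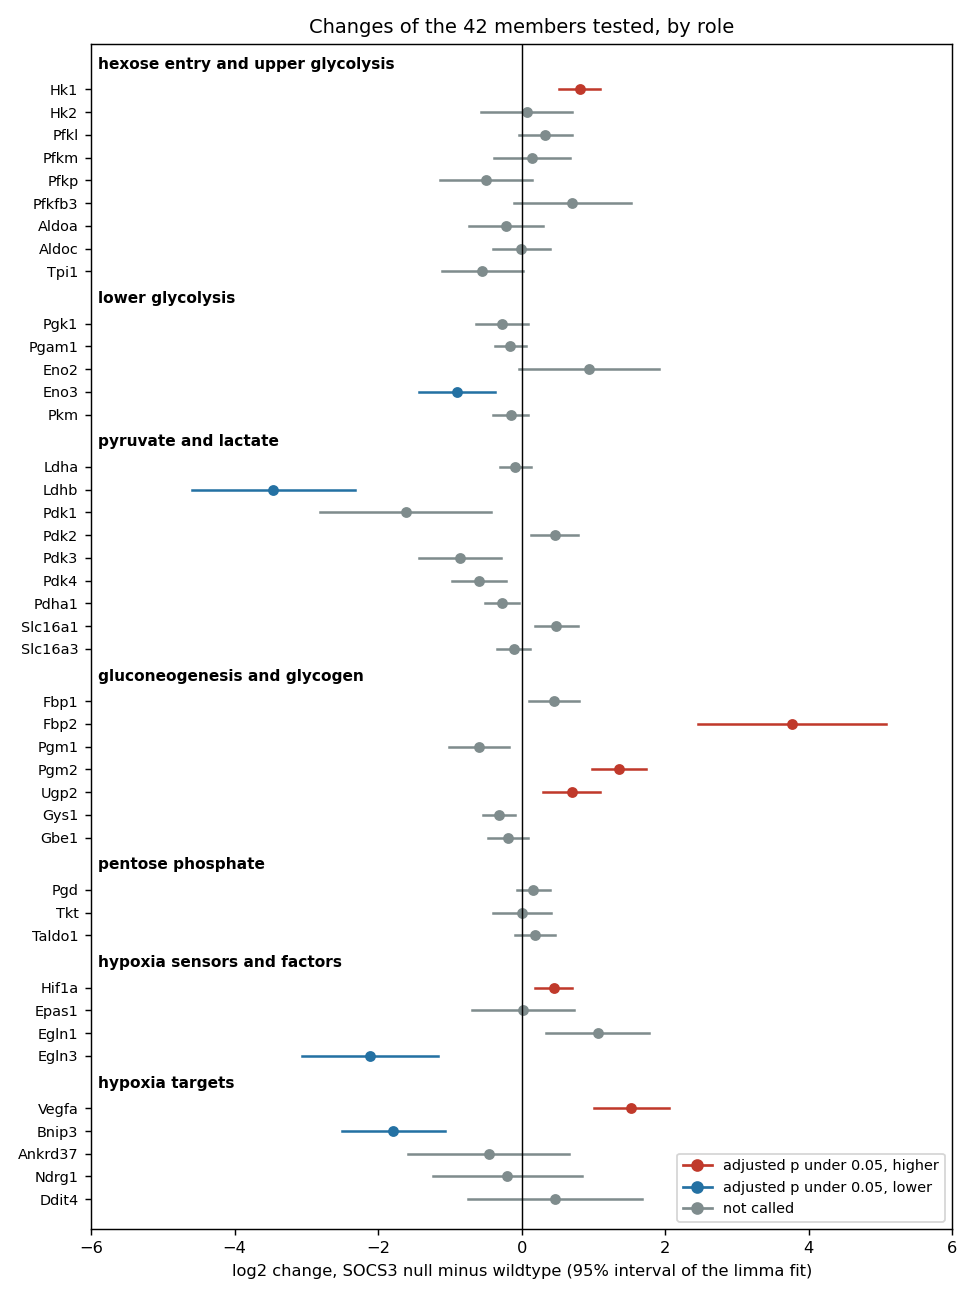
Log2 change of each of the 42 members tested, SOCS3 null minus wildtype, with the 95% interval of the limma fit (2 arrays per genotype), grouped by role. Red and blue mark the 6 members called higher and the 4 called lower. Most glycolytic enzymes lie near 0, while Ldhb and Fbp2 lie furthest from it.

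The first steps of glycolysis trap glucose in the cell and split it. Of 9 members tested here 1 was called, the hexokinase gene Hk1. Its intensity was 236 and 244 on the wildtype arrays against 404 and 463 on those of SOCS3 null. The groups did not overlap, and the change was 0.81 (SE 0.10, limma adjusted p = 0.0169). The second probe set of Hk1 changed by 0.84.

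Hk2, the other hexokinase on the list, was at 3638 and 3006 in wildtype against 2891 and 4165 in SOCS3 null. These ranges overlap, and the change was 0.07 with a 95% interval of -0.56 to 0.70. The genes of phosphofructokinase, the committed step, changed by 0.33 for Pfkl, 0.14 for Pfkm and -0.50 for Pfkp, and none was called. The further probe sets of Pfkp changed by -0.54 and -1.26, and neither was called. Pfkfb3, whose enzyme makes the activator of phosphofructokinase, changed by 0.70 (adjusted p = 0.17), from 61.7 and 30.4 to 73.8 and 90.3.

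The aldolase genes Aldoa and Aldoc changed by -0.21 and 0.00, and triosephosphate isomerase, Tpi1, by -0.55 (adjusted p = 0.135). All 5 probe sets of Aldoa had lower SOCS3 null means, with changes of -0.30 to -0.18, and none of them was called. For Tpi1 the 3 probe sets changed by -0.55, -0.49 and -0.43.

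The lower steps yield ATP, and of 5 members tested 1 was called, Eno3. Pgk1, phosphoglycerate kinase, changed by -0.27 (95% interval -0.63 to 0.09), the mutase Pgam1 by -0.16 (-0.37 to 0.05) and pyruvate kinase, Pkm, by -0.16 (-0.40 to 0.09). Each of these intervals excludes a change of 1 log2 unit in either direction. The 3 control probe sets of Gapdh, which were not tested, lay at 24159 to 27667 in wildtype and 20453 to 22378 in SOCS3 null, with log2 differences of -0.22 to -0.27.

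Enolase was measured by its less widespread isoenzymes only. Eno3, the muscle enolase, was at 203 and 161 in wildtype against 105 and 76.9 in SOCS3 null, a change of -0.90 (SE 0.19, limma adjusted p = 0.0458). All wildtype values lay above the SOCS3 null values. Eno3 was called in 8 of the 11 alternatives that used all 4 arrays. Eno2, the neuronal enolase, was at 42.9 and 29.8 in wildtype against 57.3 and 118 in SOCS3 null, and its change of 0.93 was not called (SE 0.35, adjusted p = 0.141).

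Of 9 members tested around pyruvate and lactate 1 was called, Ldhb, which was lower. Lactate dehydrogenase interconverts pyruvate and lactate as a tetramer of LDHA and LDHB subunits, and LDHA-rich forms favour lactate. Ldha was at 15913 and 16093 in wildtype against 15268 and 14770 in SOCS3 null. Its change was -0.09 (SE 0.08, adjusted p = 0.452), with a 95% interval of -0.31 to 0.12. Ldhb was at 1906 and 1846 in wildtype against 101 and 236 in SOCS3 null. Both SOCS3 null values lay far below the wildtype values, and the change was -3.46 (SE 0.40, limma adjusted p = 0.0147), or 11.0-fold on this scale. All 4 probe sets of Ldhb were called lower, with changes of -3.46 to -3.01.

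Within each array the difference between the log2 values of Ldha and Ldhb was 3.05 and 3.11 in wildtype against 7.03 and 5.88 in SOCS3 null. The difference of their changes was 3.37 (SD within genotype 0.58, n = 2). An exact two-sided permutation test over 4 arrays cannot give a p below 0.333, which is what this pair gave. Of 17 pairs of genes that share a reaction or role, 14 had both genes tested. Of these 10 reached 0.333, or 0.467 after Benjamini-Hochberg adjustment over the 14, so no pair could pass a threshold of 0.05. Pairs are therefore described by their values.

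**Figure D2:**
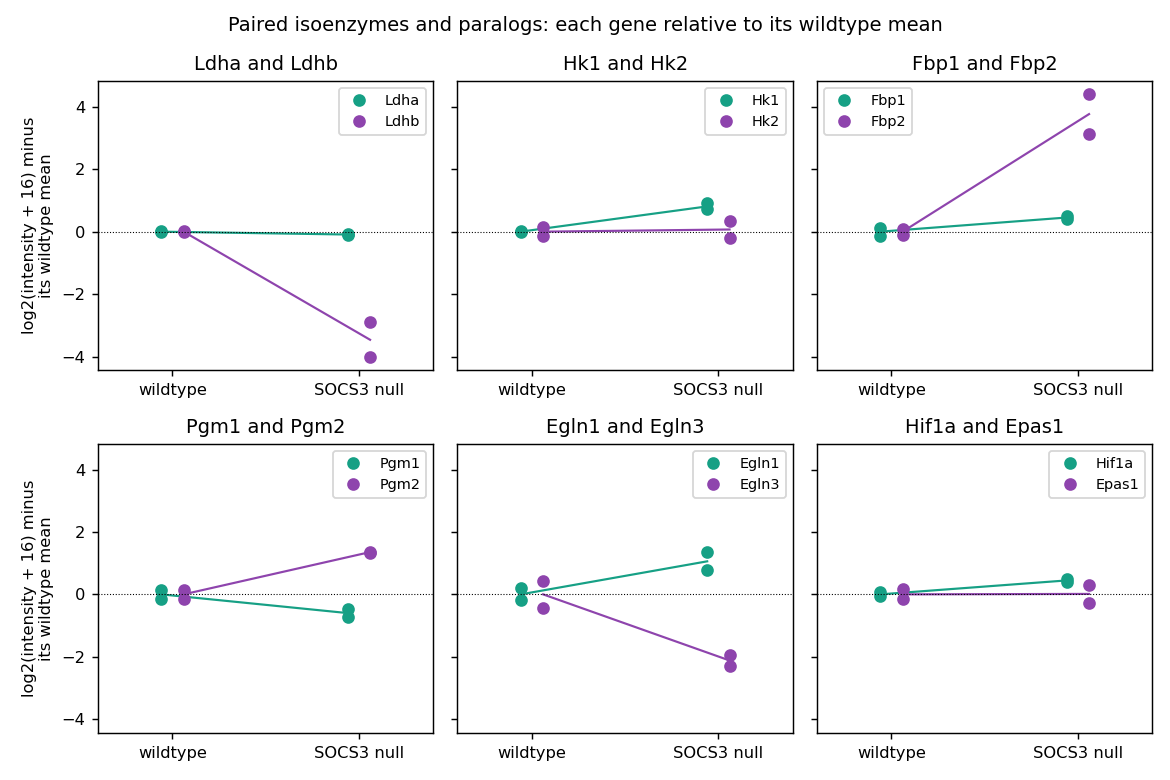
Each panel shows log2(intensity + 16) of 2 related genes on the 4 arrays, minus the wildtype mean of the same gene, with lines joining the genotype means. Levels of the 2 genes cannot be compared here, only their changes: Ldha stays near 0 while Ldhb changes by -3.46, and Egln1 and Egln3 differ by 3.18 in their changes.

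Pyruvate dehydrogenase sends pyruvate into the mitochondrion's citric acid cycle, and the PDK kinases switch it off. None of the 4 kinase genes was called. Each had an unadjusted limma p under 0.05, as had 4905 of the 12732 genes tested. Pdk1 was at 2002 and 1985 in wildtype against 422 and 965 in SOCS3 null, a change of -1.62 (SE 0.42, adjusted p = 0.0707). The groups did not overlap, but the SOCS3 null arrays differed from each other by 1.16 on the log2 scale.

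Pdk1 had 3 further probe sets. A second bright probe set changed by -1.60 and a dimmer one by -1.18, and a very dim one, at 7.55 and 9.97 in wildtype, changed by 0.49. Over all probe sets tested, the second was called (limma adjusted p = 0.0257). The dim one passed the filter only through its SOCS3 null arrays, so its direction supports nothing.

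The changes of Pdk3, Pdk4 and Pdk2 were -0.86, -0.60 and 0.46, with adjusted p of 0.0562, 0.0514 and 0.0649. Pdha1, the catalytic subunit of the complex itself, changed by -0.27 (adjusted p = 0.103) on its brighter probe set and by -0.71 on its other (limma adjusted p = 0.0176 over all probe sets tested). Slc16a1, which carries lactate and pyruvate across the plasma membrane, was at 2873 and 2543 in wildtype against 3619 and 3963 in SOCS3 null, with a change of 0.48 (adjusted p = 0.0511). Slc16a3, a lactate exporter known as a hypoxia target, changed by -0.11.

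Genes that run hexose phosphates backward or into glycogen included the member that rose most. Fbp2, the muscle form of fructose bisphosphatase, was at 19.8 and 24.7 in wildtype against 792 and 318 in SOCS3 null. Its change was 3.77 (SE 0.47, limma adjusted p = 0.0163), or 13.6-fold on this scale. The wildtype values lie near the array median, and the fitted change moves with the pseudocount: it was 4.44 at a pseudocount of 1 and 2.73 at 64. Fbp1, the liver form, was at 11.8 and 7.41 in wildtype against 20.2 and 17.7 in SOCS3 null, with a change of 0.45 (adjusted p = 0.0754). Fbp1 passed the filter on dim probe sets only through its SOCS3 null arrays.

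Phosphoglucomutases interconvert glucose phosphates on the way into and out of glycogen. Pgm2 was at 395 and 315 in wildtype against 918 and 936 in SOCS3 null, a change of 1.35 (SE 0.13, limma adjusted p = 0.0109) with no overlap. Pgm1 was at 323 and 266 in wildtype against 171 and 206 in SOCS3 null, a change of -0.60 (SE 0.15, adjusted p = 0.0632). Within arrays the difference of Pgm1 and Pgm2 shifted by -1.95. The symbols follow the RefSeq table, which lists each of the 2 names as an older name of the other gene.

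Ugp2, which makes the UDP-glucose used for glycogen and for glycan chains, was at 399 and 394 in wildtype against 733 and 578 in SOCS3 null. The change was 0.69 (SE 0.14, limma adjusted p = 0.0423), and it was called in 7 of the 11 alternatives that used all 4 arrays. All 5 of its probe sets had higher SOCS3 null means, by 0.26 to 0.78 on the log2 scale. Glycogen synthase, Gys1, was at 351 and 329 and then at 269 and 270, a change of -0.32 (adjusted p = 0.0677). The second probe set of Gys1 changed by -0.63, and the gene was called lower in 3 of the 11 alternatives that used all 4 arrays. The branching enzyme gene Gbe1 changed by -0.19. Of the 7 members of this group 3 were thus higher and 0 lower, beside 13.1% and 9.55% of all genes. A group of 7 is too small for its share to be read.

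The pentose phosphate pathway makes NADPH and ribose from glucose phosphate. Of its 3 tested members limma called 0, and 0 had an unadjusted p under 0.05. Phosphogluconate dehydrogenase, Pgd, changed by 0.16 (95% interval -0.07 to 0.39), transaldolase, Taldo1, by 0.18 (-0.09 to 0.46) and transketolase, Tkt, by 0.01 (-0.40 to 0.41). All 3 intervals lie within 0.5 log2 units of 0 on either side.

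**Figure D3:**
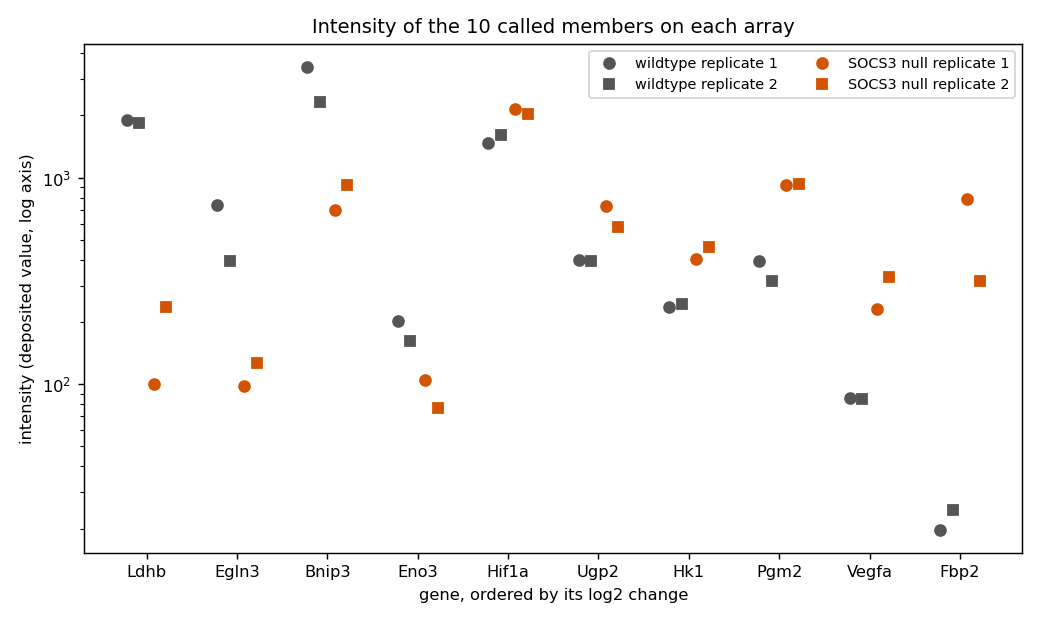
Deposited intensity of the 10 called members on each of the 4 arrays, on a log axis, ordered by log2 change. For each of the 10 genes both SOCS3 null values lie on the same side of both wildtype values. The SOCS3 null arrays differ from each other most for Fbp2 (792 and 318) and Ldhb (101 and 236).

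Of the 4 genes of oxygen sensing 1 was called higher, Hif1a, and 1 lower, Egln3. Egln3, a prolyl hydroxylase whose own transcript is raised by HIF, was at 734 and 397 in wildtype against 98.6 and 127 in SOCS3 null. The change was -2.12 (SE 0.34, limma adjusted p = 0.0264), and its second, dimmer probe set changed by -1.47. Egln1, the main hydroxylase in most cells, was at 149 and 111 in wildtype against 232 and 351 in SOCS3 null, a change of 1.06 (SE 0.26, adjusted p = 0.0598). Both probe sets of Egln1 had higher SOCS3 null means. The difference of the changes of Egln1 and Egln3 was 3.18 (SD within genotype 0.27, n = 2).

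Hif1a, the oxygen-labile subunit of HIF, was at 1466 and 1603 in wildtype against 2155 and 2035 in SOCS3 null, with a change of 0.45 (SE 0.09, limma adjusted p = 0.0442). This rested on the brightest of 4 probe sets and was called in 6 of the 11 alternatives with all 4 arrays. The other tested probe sets of Hif1a changed by 0.11 and -0.02. The last, at 6.50 to 12.7, was too dim to be tested and changed by -0.18. As the mean of its tested probe sets the gene changed by 0.18 and was not called. Epas1, which encodes the related subunit HIF2 alpha, was at 947 and 758 in wildtype against 693 and 1055 in SOCS3 null, a change of 0.01 with overlapping groups.

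Genes that hypoxia induces moved in both directions. Vegfa, the growth factor for blood vessels, was at 86.3 and 85.3 in wildtype against 233 and 331 in SOCS3 null. The change was 1.53 (SE 0.19, limma adjusted p = 0.016), and its second probe set changed by 1.23. Bnip3, which marks mitochondria for removal, was at 3430 and 2329 in wildtype against 700.1 and 925 in SOCS3 null, a change of -1.79 (SE 0.26, limma adjusted p = 0.0214). Neither gene had overlapping groups.

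The other targets overlapped between genotypes. Ankrd37 changed by -0.46 and Ndrg1, a stress response gene, by -0.20. Ddit4, an inhibitor of mTOR signalling, changed by 0.47. Their standard errors were 0.40, 0.37 and 0.43, and each of the 3 intervals held a change of 1 log2 unit in at least 1 direction. Car9, a cell surface carbonic anhydrase often used as a hypoxia marker, was at 6.55 to 11.1 on all 4 arrays, below the array median.

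The 2 arrays of each genotype also differed from each other in the hypoxia genes. All 5 hypoxia targets were higher on wildtype replicate 1 than on wildtype replicate 2, and higher on SOCS3 null replicate 2 than on replicate 1. Ankrd37 was at 317 and 150 on the wildtype arrays against 131 and 183 on those of SOCS3 null. Ndrg1 was at 235 and 135 in wildtype against 117 and 201 in SOCS3 null. Ddit4 was at 1457 and 875 in wildtype against 1128 and 2177 in SOCS3 null. On the brightest probe set of each gene, wildtype replicate 1 and SOCS3 null replicate 2 were the higher arrays.

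Wildtype replicate 1 and SOCS3 null replicate 2 were singled out after the data were seen. The hypoxia targets are themselves among the 42 members, so the next share is a description only. Over the whole list 26 of 42 members, or 61.9%, were higher on these 2 arrays, against 27.2% of all genes tested. Of 23 tested genes on a further list of hypoxia genes 16 were, among them Bhlhe40, a transcriptional repressor induced by hypoxia, with differences of 1.10 between the wildtype arrays and 1.07 between the SOCS3 null arrays. Fibroblast and feeder markers ran the other way: 7 of 7 tested were lower on wildtype replicate 1 and on SOCS3 null replicate 2. Among all genes tested, 52.6% were higher on wildtype replicate 1 and 48.9% on SOCS3 null replicate 2. The share of all genes that were lower on both of these arrays was not counted. The summed intensity of the 8 fibroblast and feeder markers listed was 1325 and 2179 on the wildtype arrays against 2589 and 1596 on those of SOCS3 null. None of these markers was at 0, 1 of the 8 lay below the array median and 0 of the 7 tested were called between genotypes. The part of these markers in the differences between arrays was not tested.

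**Figure D4:**
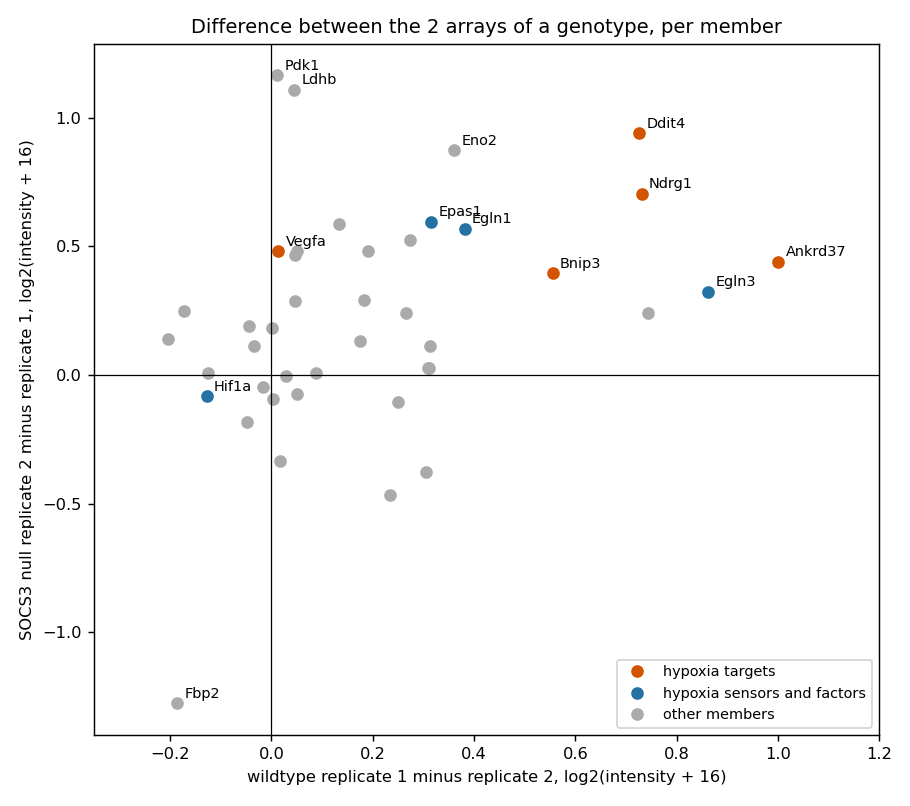
Difference between the 2 arrays of each genotype for the 42 members, in log2(intensity + 16). Replicate 1 minus replicate 2 of wildtype is on the horizontal axis and replicate 2 minus replicate 1 of SOCS3 null on the vertical axis. Each gene is shown by its brightest probe set. All 5 hypoxia targets lie in the upper right, and 26 of 42 members do, against 27.2% of all genes tested. The second probe set of Vegfa and 1 of Ndrg1, not shown, ran the other way. The directions of subtraction were chosen after the data were seen.

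Other genes of these pathways, from a list of 85, were called at a rate that can be set beside the background of 22.7%. Of 64 tested, 11 were higher and 8 lower, with a median change of 0.20. In glycolysis and its side branches Bpgm, whose product is the bisphosphoglycerate that regulates haemoglobin, and Tigar, a phosphatase that slows glycolysis, changed by -0.66 and -0.64. The glucose carriers Slc2a1 and Slc2a3 changed by -0.42 and 0.38 and were not called. Around pyruvate, Mpc1, a subunit of the mitochondrial pyruvate carrier, rose by 1.16 and Bsg, the chaperone of the lactate carriers, by 0.69, while Pdp1, a phosphatase that reactivates pyruvate dehydrogenase, changed by -0.76.

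In glycogen metabolism the primer glycogenin, Gyg, rose by 0.44 and the lysosomal glucosidase Gaa by 0.73. Among pentose phosphate genes H6pd, an enzyme of the endoplasmic reticulum, rose by 0.72, and the ribose phosphate users Prps1 and Prps2 changed by -1.45 and -0.82.

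Of 23 further hypoxia genes 6 were higher and 3 lower, beside 13.1% and 9.55% of all genes. Tfrc, the transferrin receptor, was among those lower, with -1.01. Those that rose included the collagen hydroxylases P4ha2, P4ha1 and Plod2, by 4.50, 2.39 and 2.76. P4ha2 went from 113 and 84.5 to 2220 and 2971. The carbonic anhydrase Car12, the adenylate kinase Ak4 and the secreted glycoprotein Stc2 rose by 1.42, 1.30 and 0.94. The histone demethylase Kdm3a and the mitochondrial protein Fam162a changed by -1.05 each, the same direction as Bnip3 and Egln3.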

How the data were processed

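Expression in wildtype and SOCS3 null mouse ES cells was measured on 4 one-colour arrays, 2 per genotype. The authors deposited 1 intensity per probe set and array on a linear scale, for 45101 probe sets; how they were summarised and normalized is not given in the sources used here. Array medians lay between 15.8 and 16.0, so the intensities were not normalized again. The number of arrays limits the precision.

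Genes were named from the platform annotation, which gave 34945 probe sets 1 symbol. The 64 control probe sets were left out. Probe sets whose mean log2(intensity + 16) reached the 40th percentile were kept, and the brightest stood for its gene. limma 3.58.1 (lmFit, eBayes, in R 4.3.3) was fitted with genotype as the only term, with Benjamini-Hochberg adjustment over 12732 genes. It was also run on simulated arrays with far fewer changed genes than were called here, which does not check these calls. The pseudocount of 16 understates changes of dim genes. Pairs of isoenzymes were compared by an exact permutation test over arrays. Promoters are RefSeq's, GRCm38.p6; 45 of 48 members matched by symbol.

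The members and lists were chosen with earlier results of these data known. By rule, values on every array were given for each called member and its isoenzyme partner, other members were given by their change, and further pathway genes were named when called; probe set values, Pfkfb3, Eno2, Pdk1, Slc16a1, Gys1, Car9, Slc2a1, Slc2a3, Bhlhe40 and the targets Ankrd37, Ndrg1 and Ddit4 were given in more detail after their values were seen. The fit was repeated with a pseudocount of 1 or 64, after quantile normalization or centring on array medians, without a filter or with it at the 60th percentile, with a trend (plain or robust) in eBayes, with replicate numbers as blocks, with probe sets averaged per gene, with adjustment over all 27022 probe sets tested, and without each array in turn. Figures were drawn with matplotlib 3.10.9.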

Additional observations from a re-analysis of the deposited data

How the results depend on the processing

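The 10 called members kept their direction in all 15 alternatives. Leaving out any 1 array, limma found 0 genes, 0 members higher, 0 members lower and 0 of the other pathway genes, while 12 to 18 members and 2928 to 4733 genes had an unadjusted p under 0.05. Keeping dim probe sets gave 1631 genes called, 2 members higher and 0 lower. At an unadjusted limma p under 0.05 were 22 of 43 members and 4866 of 18193 genes. The number of members called lower was 8 with quantile normalization, with the filter at the 60th percentile and with probe sets averaged per gene. Members called higher numbered 9 when eBayes took a mean-dependent prior, robust or not, and 8 under the 60th percentile filter. The causes were not tested beyond the number of genes and arrays that enter each fit.

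With the replicate number as a block 1914 genes were called, and 4 members were higher and 5 lower. Same-numbered arrays did not deviate together (correlation over genes -0.12), so the numbers were not taken to pair the arrays. With the crossed pairing, chosen after seeing the data, 2817 genes were called, and 7 members were higher and 6 lower. The median change of all genes moved by less than 0.1 under every scaling.

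Of 627 values of members under alternatives 526 kept direction and side of the threshold, 57 lost a call, 26 gained one and 18 changed sign, all among members not called. Epas1 was at -0.0064 with quantile normalization and -0.017 with the mean of its probe sets, Aldoc at 0.0071 with median centring and Ndrg1 at 0.018 with the mean of its probe sets. Leaving out an array moved Aldoc from -0.16 to 0.15, Ankrd37 from -0.96 to 0.040, Ndrg1 from -0.56 to 0.17, Hk2 from -0.19 to 0.33, Tkt from -0.14 to 0.15, Epas1 from -0.28 to 0.31, Aldoa from -0.44 to 0.021, Pfkm from -0.10 to 0.39 and Ddit4 from -0.0013 to 0.94. No detection calls were used, so values near the array median are read as dim, not absent.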
